A study of Mus musculus with 8 samples.

Results

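The prostanoid receptors are the 8 genes Ptger1, Ptger2, Ptger3, Ptger4, Ptgdr, Ptgfr, Ptgir and Tbxa2r, which encode EP1, EP2, EP3, EP4, DP1, FP, IP and TP. They were taken by gene symbol from the deposited tables, whatever their level, and are 8 of 54532 genes in the table of the PTS + RS and RS groups and 8 of 28229 genes in the table of the HDAC3 inhibitor and NaCl groups. RNA-seq was performed on 8 libraries of mouse brain from Day 21, with 2 libraries per group. The study looked at anxiety after stroke in mice and at prostaglandin E2 acting through EP2, so the transcripts of the receptors bear on which of them these tissues express and whether their levels differ between the groups.

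All mice were male C57BL/6 mice without a named transgene or deletion, and all 4 groups received restraint stress (RS). In the PTS + RS group a photothrombotic stroke, a light-induced clot in cortical vessels, preceded the restraint stress. The HDAC3 inhibitor and NaCl groups were also PTS + RS mice. The former received RGFP109, an inhibitor that the study describes as selective for the histone deacetylases HDAC1 and HDAC3. By the study's methods it was given subcutaneously at 60 mg/kg once per day for 2 weeks. A figure legend of the study gives a longer course, which ends after Day 21. Its solvent held DMSO, hydroxypropyl-β-cyclodextrin and sodium acetate, and the study calls the control vehicle, whereas the labels say NaCl treatment. Whether the NaCl group received this solvent is not stated, so RGFP109 and its solvent may not be told apart. By the labels, every library of the PTS + RS and RS groups is cortex. In the HDAC3 inhibitor group and in the NaCl group, replicate 1 is labelled cortex and replicate 2 amygdala. The study's methods mention pooling and barcoding of samples without saying whether mice were pooled within a library, so the spread between libraries may not be that between mice.

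Prostanoids are lipid messengers made from arachidonic acid by the cyclooxygenases and by synthases that each give 1 product, and they act close to where they are made. Their receptors are G protein-coupled receptors of the cell surface. EP2, EP4, DP1 and IP raise cyclic AMP through Gs, EP3 mainly lowers it through Gi, and EP1, FP and TP mainly raise intracellular calcium. In the brain they are known for roles in fever, pain, sleep, blood flow and the response of microglia to injury.

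The gene counts of a library summed to between 15902013 and 21712033. Library NaCl 1, labelled cortex, stood apart from the others before any receptor was looked at. The 8 olfactory bulb markers summed to 1210 CPM there (the count relative to the TMM-normalized depth) and to between 13.6 and 19.1 CPM in the other 7 libraries. The 10 cortex markers summed to 403 CPM in NaCl 1 and to between 644 and 904 CPM elsewhere, so this library went against its label. The 2 libraries labelled amygdala had 1370 and 1510 CPM of the 10 striatal markers, against 175 to 257 CPM in the other libraries. Their sums of the 10 amygdala markers, 257 and 286 CPM, were below the 717 CPM of NaCl 1, of which Meis2 alone gave 628 CPM. The 10 choroid plexus markers ranged from 17.0 to 3890 CPM over the libraries, also within groups. Log2 fold changes of the receptors that rest on NaCl 1 are therefore given with and without it. Correlations, pathway values and most shares over all genes are given with it only.

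All 8 receptors were transcripts of low level. Compared per length, in the FPKM the authors deposited, the highest median over the 8 libraries was 0.647 for Ptger3 and the lowest was 0.0375 for Ptgir. Ptger3 lay above 40.9% of the protein-coding genes at its median place, and Ptgir above 26.4%. The order by median FPKM was Ptger3 (0.647), Tbxa2r (0.646), Ptgdr (0.448), Ptger1 (0.387), Ptger4 (0.270), Ptgfr (0.204), Ptger2 (0.0614) and Ptgir (0.0375). No neighbours in this order were apart in all libraries by range, since each pair's ranges overlapped. Ptger3 and Tbxa2r, neighbours at the top, were in this order in 4 of 8 libraries. Ptgfr and Ptger2, in contrast, were in this order in 8 of 8 libraries. Ptger2 was not under all of the first 6 receptors in every library, since in NaCl 1 it was at 0.260 FPKM, above Ptger1 (0.206) and Ptger4 (0.194), and in PTS + RS 2 Ptgdr was at 0.0187 FPKM, below Ptger2 (0.0688).

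**Figure D1:**
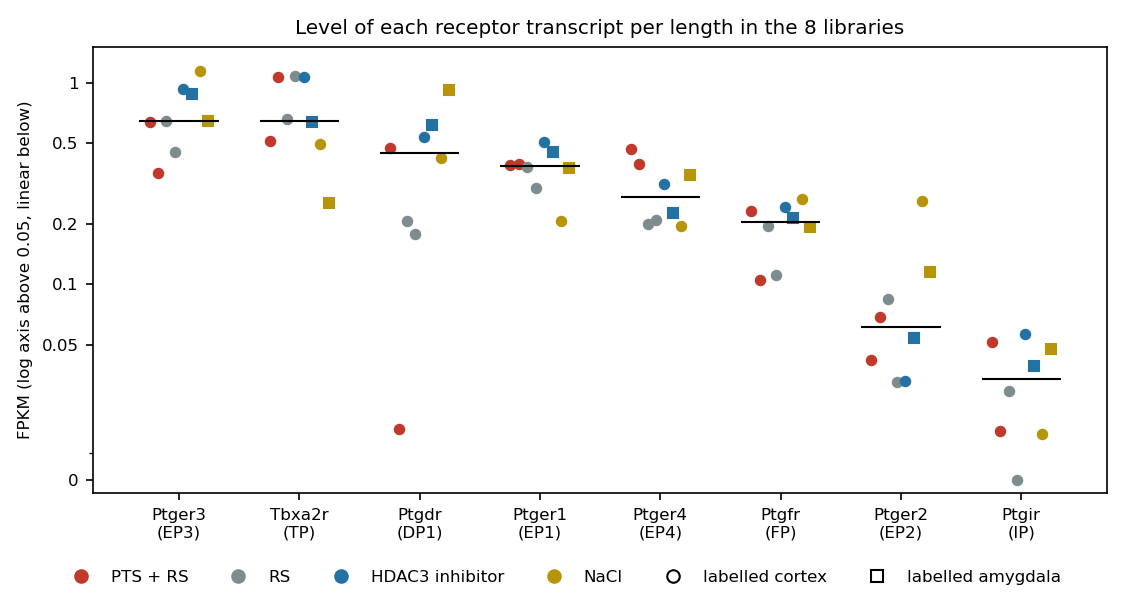
FPKM of each receptor transcript (y axis, logarithmic above 0.05 and linear below) in the 8 libraries, coloured by group, with squares for libraries labelled amygdala and black lines for medians. Ptger2 and Ptgir sit lowest, with medians of 0.0614 and 0.0375, and Ptgdr has 1 library at 0.0187, far under its median of 0.448.

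The raw counts show how little stands behind these levels. Over the 8 libraries together Ptger3 had 578 counts, Ptger1 292, Ptger4 275, Ptgdr 195, Tbxa2r 191, Ptgfr 188, Ptger2 65 and Ptgir 16. The 4 EP receptors took between 63.0% and 71.4% of the summed CPM of the 8 receptors in a library. This is a share of reads, since CPM leaves out gene length. The EP genes have 5193 to 6648 bases, against 1919 for Tbxa2r, 3187 for Ptgdr, 3334 for Ptgir and 6778 for Ptgfr. A count of 0 allows up to 3 counts as a one-sided limit, which is 0.140 to 0.190 CPM here. The plotted intervals are two-sided and reach higher at 0 counts, to 0.233 CPM for Ptgir in RS 2, and both cover counting error only. After the filter on low counts 6 of 8 receptors could be tested between PTS + RS and RS, without Ptger2 and Ptgir, and 7 of 8 in the HDAC3 inhibitor and NaCl table, without Ptgir.

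**Figure D2:**
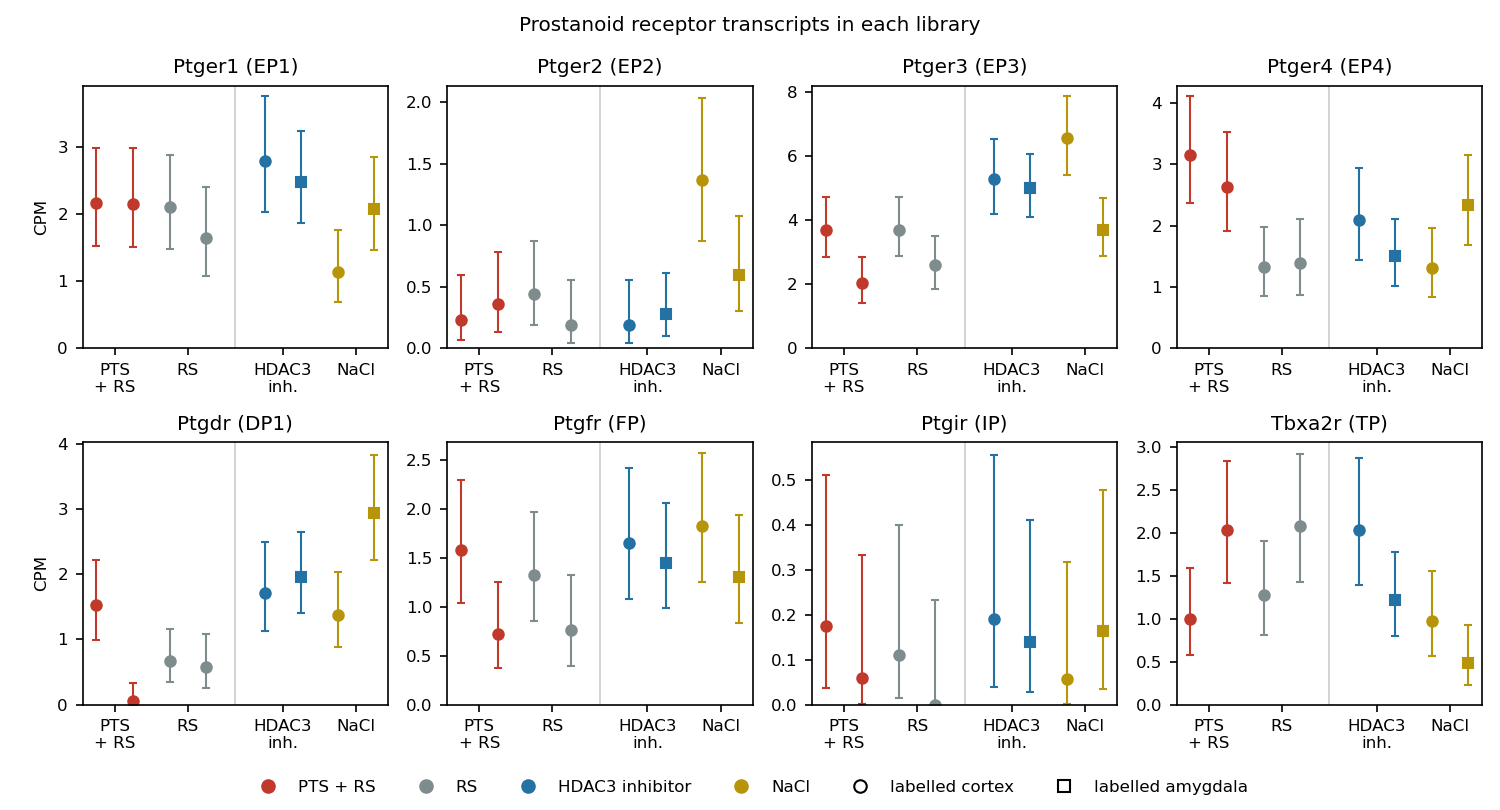
CPM of the 8 receptor transcripts (y axes, linear, from 0) in each library by group, with exact 95% Poisson intervals of the counts as bars, and squares for libraries labelled amygdala. Ptger4 is at 3.15 and 2.63 CPM in PTS + RS against 1.32 and 1.39 in RS, and Ptger2 is highest in library NaCl 1 at 1.37 CPM.

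The comparison of PTS + RS with RS asks what stroke adds to restraint stress in the cortex. Of the 6 receptors tested, 0 passed the threshold, which asks both for an adjusted p below 0.05 and for a fold of 1 or more on the log2 scale in either direction (edgeR quasi-likelihood test, Benjamini-Hochberg adjustment over 17581 genes), and 2.21% of all tested genes passed it. Ptger4 alone had an unadjusted p under 0.05, as did 17.9% of all genes. The CPM of the 2 groups did not overlap for Ptger4 and Ptger1, 2 of 6 receptors, against 50.2% of all genes. The median log2 fold change was 0.17 over the 6 receptors and about 0 over all genes. An exact permutation test of 2 against 2 libraries cannot go below p = 0.333, so the tests here rest on the spread pooled over genes.

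Ptger4 encodes EP4, the Gs-coupled receptor of prostaglandin E2 known from macrophages and other immune cells, and lies on chromosome 15 from 5206661 to 5244187 on the minus strand (GRCm38). Its counts were 54 and 44 in the PTS + RS libraries and 24 and 22 in the RS libraries, or 3.15, 2.63, 1.32 and 1.39 CPM. Both PTS + RS libraries were above both RS libraries, with means of 2.89 ± 0.368 and 1.35 ± 0.0495 CPM (SD, n = 2). The log2 fold change was 1.09 ± 0.309 (SE), with a 95% confidence interval from 0.36 to 1.82. The adjusted p of edgeR was 0.12 (unadjusted 0.0094), and 0.041 when genes of low count were kept in the fit, which is the only alternative that put Ptger4 past the threshold. Over all alternatives the adjusted p ran from 0.041 to 0.50.

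Microglial markers were higher in the same 2 libraries as Ptger4. All 12 microglial markers passed the threshold as higher in PTS + RS, and none of them was at 0 in any library. They summed to 1590 and 1360 CPM in PTS + RS and to 353 and 319 CPM in RS. Astrocyte markers summed to 7980 and 6790 CPM in PTS + RS and to 4630 and 4670 CPM in RS, where 9 of 10 had a higher fitted value and 2 passed the threshold. All 10 oligodendrocyte and all 10 endothelial markers had higher fitted values as well, with 0 of them past it. In the other table the library with most microglial markers, NaCl 2 with 734 CPM, also had the most Ptger4, 2.34 CPM, while HDAC3 inhibitor 1 had 2.09 CPM of Ptger4 at 420 CPM of these markers. In bulk tissue more cells of a type and more RNA per cell cannot be told apart, and the part of these cell types in the difference of Ptger4 was not tested. A pseudogene on the other strand, Gm15937, shares 15.3% of the exon bases of Ptger4.

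Ptger1, Ptger2 and Ptger3 encode the other EP receptors. Ptger1 (chromosome 8 from 83666678 to 83672753, plus strand) had 37 and 36 counts in PTS + RS and 38 and 26 in RS, or 2.16, 2.15, 2.10 and 1.64 CPM. The groups did not overlap, but RS 1 lay within 0.1 CPM of the PTS + RS libraries, and the log2 fold change was 0.20 ± 0.314 with an adjusted p of 0.80 (edgeR). The labels name a strand-specific kit and the study's methods another one, and no source used here gives the strand setting of the counting, so reads from opposite strands of a locus may not be told apart for any receptor.

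Ptger3 (chromosome 3 from 157566892 to 157645888, plus strand), the transcript of the Gi-coupled receptor of prostaglandin E2, had 63 and 34 counts in PTS + RS and 67 and 41 in RS. The libraries of both groups spanned nearly the same range, 2.03 to 3.68 CPM and 2.59 to 3.70 CPM. The log2 fold change of -0.14 ± 0.365 had an interval from -1.0 to 0.72. Ptger2 (chromosome 14 from 44988195 to 45003820, plus strand), which encodes EP2, had 4 and 6 counts in PTS + RS and 8 and 3 in RS. The pooled rate of Ptger2 in PTS + RS was 0.913 times that in RS, with an exact 95% interval from 0.347 to 2.37 that covers counting error only. A change of Ptger2 smaller than this interval was thus not detectable at this depth.

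Ptgdr encodes DP1, the Gs-coupled receptor of prostaglandin D2 with a known role in sleep, and is on chromosome 14 from 44851235 to 44859375 on the minus strand. Its counts were 26 and 1 in PTS + RS and 12 and 9 in RS, or 1.52, 0.0598, 0.662 and 0.568 CPM. Thus the highest and the lowest of the 4 libraries were both in the PTS + RS group. The log2 fold change was 0.36 ± 0.991, and it became -3.22 without PTS + RS replicate 1 and 1.29 without PTS + RS replicate 2, with adjusted p-values of 0.15 and 0.17 (edgeR).

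The library with 1 count of Ptgdr also had the lowest sum of meningeal fibroblast markers, the cells of the brain's covering. The 10 meningeal fibroblast markers, all detected in every library, summed to 236 and 95.9 CPM in PTS + RS and to 201 and 151 CPM in RS. The choroid plexus markers summed to 1660 and 51.8 CPM in PTS + RS, with Kcnj13 at 0 in the second library, and to 1870 and 3890 CPM in RS. In the other table Ptgdr was highest in NaCl 2 at 2.94 CPM, the library with most meningeal fibroblast markers, 354 CPM, while its choroid plexus markers were at 19.5 CPM. Of that sum the collagen genes Col1a1, Col1a2 and Col3a1 gave 66.0, 116 and 57.4 CPM, whereas Slc13a4 was at 18.4 CPM, below its 41.1 CPM in NaCl 1. At similar sums of these markers, 201 and 205 CPM, RS 1 had 0.662 CPM of Ptgdr and HDAC3 inhibitor 1 had 1.71 CPM. The part of these cells in the level of Ptgdr was not tested.

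Ptgfr encodes FP, the receptor of prostaglandin F2alpha, and is on chromosome 3 from 151796502 to 151837630 on the minus strand. It had 27 and 12 counts in PTS + RS and 24 and 12 in RS, or 1.58, 0.718, 1.32 and 0.757 CPM. In both groups the library numbered 1 was the higher one, and the groups overlapped. The log2 fold change was 0.13 ± 0.528. The 2 libraries with fewest Ptgfr counts were also those with the lowest meningeal fibroblast sums, 95.9 and 151 CPM. NaCl 2, with the highest sum of any library, 354 CPM, had 1.30 CPM of Ptgfr, the lowest in the other table. NaCl 1, at 182 CPM of these markers, had the most Ptgfr of any library, 1.82 CPM. The part of these cells in the level of Ptgfr was not tested.

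Tbxa2r encodes TP, the thromboxane receptor of platelets and vascular muscle, and is on chromosome 10 from 81328731 to 81335172 on the plus strand. It had 17 and 34 counts in PTS + RS and 23 and 33 in RS, or 0.992, 2.03, 1.27 and 2.08 CPM. Here replicate 2 was the higher one in both groups, and the log2 fold change was -0.14 ± 0.469. Ptgir (chromosome 7 from 16906490 to 16910905, plus strand) encodes IP, the prostacyclin receptor of vascular muscle and platelets. It had 3 and 1 counts in PTS + RS and 2 and 0 in RS, at or under the limit of 3 counts in every library, and so no fold is given.

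**Figure D3:**
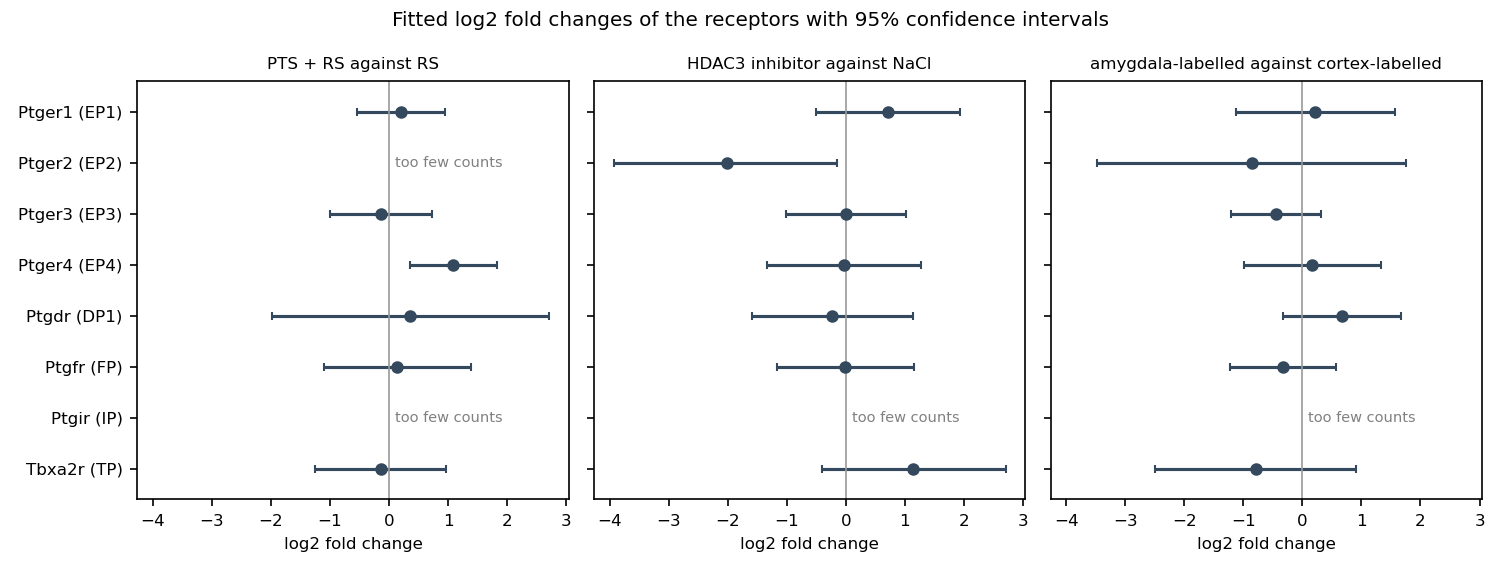
Fitted log2 fold changes of the receptors (points) with 95% confidence intervals (bars) in the 3 comparisons, on a shared x axis of log2 fold change; receptors that did not pass the filter are marked. The intervals leave out 0 for Ptger4 between PTS + RS and RS and for Ptger2 between HDAC3 inhibitor and NaCl only, and neither receptor passed the threshold after adjustment. Ptger2 passed the filter only through the NaCl libraries, where it was high, so its interval there is a description.

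The comparison of HDAC3 inhibitor with NaCl asks what RGFP109, perhaps with its solvent, changes in PTS + RS mice. Of the 7 receptors tested, 0 passed the threshold, and the share of all 17565 genes that passed was 0.0% (edgeR). At an unadjusted p under 0.05 there were 206 genes, 1.17%, of which Ptger2 was 1. With DESeq2, 1 gene passed, which was no receptor, and with limma-voom 0 genes did. Without NaCl 2 the only NaCl library was NaCl 1, the one with the olfactory bulb markers, so counts of genes from that fit are not given. The groups did not overlap in CPM for Ptger1, Ptger2 and Tbxa2r, 3 of 7 receptors, against 26.6% of all genes. Ptger2 was among the 7 only through its high NaCl libraries. The median log2 fold change of the 7 receptors was -0.014, against -0.02 over all genes.

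Ptger2 had fewer counts with the HDAC3 inhibitor in both labelled pairs. It had 3 and 6 counts in the inhibitor libraries and 24 and 11 in the NaCl libraries, or 0.190, 0.280, 1.37 and 0.598 CPM. Both inhibitor libraries were below both NaCl libraries, with means of 0.235 ± 0.0636 and 0.984 ± 0.546 CPM (SD, n = 2). Each SD spans 1 library of each labelled tissue. The log2 fold change was -2.01 ± 0.730, with an interval from -3.93 to -0.14, an unadjusted p of 0.040 and an adjusted p of 1.0 (edgeR). Over all alternatives the adjusted p ran from 0.33 to 1.0. Ptger2 passed the filter on low counts only through the NaCl libraries, where it was high, and did not pass it in the other table at 3 to 8 counts, so the difference itself decided that Ptger2 was tested, and the unadjusted p and the interval are given as a description.

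The size of this difference depended on NaCl 1, the library with the olfactory bulb markers. Its 24 counts of Ptger2 were the most of any library, and without it the log2 fold change was -1.31 at an adjusted p of 1.0. In the cortex-labelled pair the inhibitor library had 0.139 times the rate of its NaCl library, with an exact counting interval from 0.0269 to 0.459. In the amygdala-labelled pair the ratio was 0.469, and its interval from 0.142 to 1.38 held 1. NaCl 2, at 18.1 CPM of olfactory bulb markers, had 11 counts of Ptger2, and the other 6 libraries had 3 to 8. The part of the olfactory bulb markers in the level of Ptger2 was not tested.

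Tbxa2r had the highest fitted fold of inhibitor over NaCl among the receptors. It had 32 and 26 counts with the inhibitor and 17 and 9 with NaCl, or 2.03, 1.22, 0.967 and 0.489 CPM. Both inhibitor libraries were above both NaCl libraries, and in both groups the amygdala-labelled library was the lower one. The ratio was 2.10 in the cortex-labelled pair, with a counting interval from 1.13 to 4.03, and 2.48 in the amygdala-labelled pair, from 1.13 to 6.02. Counting error alone thus leaves both ratios above 1, but the fit, which also takes in the spread between libraries, gave a log2 fold change of 1.14 ± 0.601 with an interval from -0.41 to 2.71 and an adjusted p of 1.0 (edgeR). Without NaCl 1 the log2 fold change of Tbxa2r was 1.70. The 5 platelet markers summed to 4.0 and 4.81 CPM with the inhibitor and to 5.29 and 5.27 CPM with NaCl, and the 10 mural cell markers to 323 and 239 CPM and to 310 and 232 CPM.

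Ptger1 had 44 and 53 counts with the inhibitor and 20 and 38 with NaCl, or 2.79, 2.48, 1.14 and 2.07 CPM. The groups did not overlap, and NaCl 1 was the lowest library. The log2 fold change was 0.71 ± 0.472 with all libraries and 0.34 without NaCl 1, both at an adjusted p of 1.0 (edgeR).

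The remaining receptors overlapped between the inhibitor and NaCl groups. Ptger3 had 83 and 107 counts with the inhibitor and 115 and 68 with NaCl, or 5.26, 5.00, 6.54 and 3.70 CPM, with the inhibitor libraries between the NaCl libraries. Its log2 fold change was 0.00 ± 0.391, and the interval from -1.01 to 1.02 leaves room for a difference of about that size in either direction. Ptger4 had 33 and 32 counts with the inhibitor and 23 and 43 with NaCl, and a log2 fold change of -0.03 ± 0.504. The inhibitor libraries of Ptger4 thus lay between the NaCl libraries too, at 2.09 and 1.5 CPM against 1.31 and 2.34 CPM. Ptgdr had 27 and 42 counts with the inhibitor and 24 and 54 with NaCl, and a log2 fold change of -0.23 ± 0.526. Ptgfr had 26 and 31 counts with the inhibitor and 32 and 24 with NaCl, and a log2 fold change of -0.01 ± 0.447. Ptgir had 3 counts in 3 of these libraries and 1 in NaCl 1. Without NaCl 1 the log2 fold changes were 0.47 for Ptger3, -0.39 for Ptger4, -0.68 for Ptgdr and 0.24 for Ptgfr.

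The amygdala-labelled and cortex-labelled libraries of this table were compared as well, although the markers of NaCl 1 went against its label and those of both amygdala-labelled libraries were striatal; HDAC3 inhibitor 1, with 706 CPM of cortex markers and 214 CPM of striatal markers, was like the other cortex libraries. Of the 7 receptors tested, 0 passed the threshold, with 0.0% of all genes past it by edgeR and with 260 genes higher and 88 lower, none of them a receptor, by DESeq2. The share over all genes rests on single libraries: without NaCl 1 edgeR gave 744 genes higher and 397 lower, and without HDAC3 inhibitor 1 it gave 1396 and 1116, with 0 receptors in both. At an unadjusted p under 0.05 there were 11.2% of all genes and 0 receptors. Ptger3, Ptgdr and Ptgfr did not overlap, 3 of 7, against 44.0% of all genes. Ptgdr was at 1.96 and 2.94 CPM in the amygdala-labelled libraries and at 1.71 and 1.37 CPM in the cortex-labelled ones, with a log2 fold change of 0.67 ± 0.383 and an adjusted p of 0.59 (edgeR). Ptger3 had a log2 fold change of -0.44 ± 0.290 and Ptgfr one of -0.33 ± 0.344. Without NaCl 1 these values were 0.52 for Ptgdr, -0.26 for Ptger3 and -0.24 for Ptgfr, and they were 0.17 with and -0.12 without it for Ptger4 and -0.79 and -1.21 for Tbxa2r. Ptger2 turned its direction with NaCl 1, from a log2 fold change of -0.85 with this library to 1.17 without it, and Ptger1 turned from 0.22 to -0.28.

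**Figure D4:**
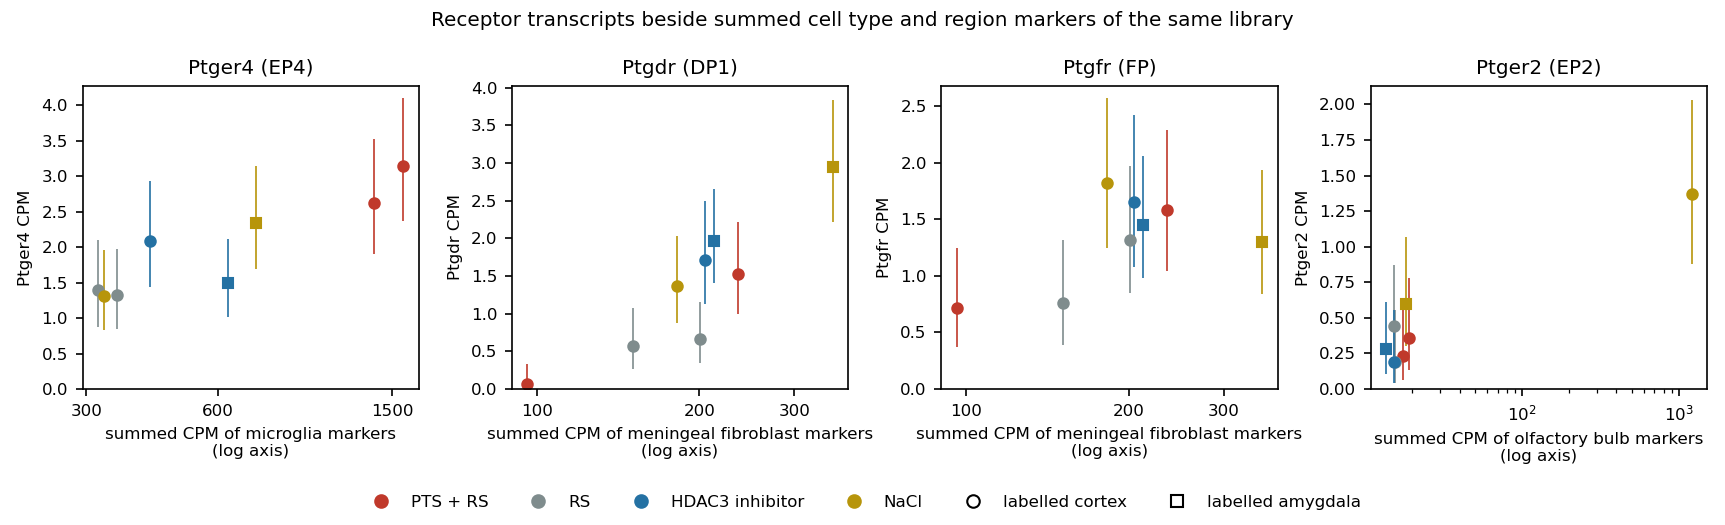
CPM of Ptger4, Ptgdr, Ptgfr and Ptger2 (y axes, linear) against the summed CPM of a marker list in the same library (x axes, logarithmic), with exact 95% Poisson intervals of the receptor counts; the pairs were chosen after their values were seen. PTS + RS libraries are at the right for Ptger4, with 1360 and 1590 CPM of microglial markers, and NaCl 1 stands alone at 1210 CPM of olfactory bulb markers for Ptger2.

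Across the 8 libraries the genes whose log2 CPM ran most like that of a receptor were found among 16947 genes that passed the filter in both tables. The libraries share groups, and levels can differ between the 2 tables. Ptger3 ran from 2.03 to 3.70 CPM in the PTS + RS and RS libraries and from 3.70 to 6.54 CPM in the others. NaCl 1, the highest library for Ptger3 and Ptgfr, is also among the 8 libraries. Pearson's r is therefore given as a description. Ptgdr was closest to Aebp1 (r = 0.95), Trim66 (0.95) and Foxc1 (0.948), the last of which is in the list of meningeal fibroblast markers. Ptgfr was closest to Slc22a6 (0.971), Crabp2 (0.964) and AW554918 (0.962), and Slc22a6 itself ranged from 2.45 to 17.4 CPM. Ptger4 was closest to Nucb1 (0.970), Cst3 (0.960) and Trim14 (0.951). Cst3, which encodes the abundant protease inhibitor cystatin C, was at 713 to 977 CPM, whereas Trim14 was as low as Ptger4, at 0.442 to 1.87 CPM. Ptger3 was closest to Cxxc4 (0.986), Gle1 (0.982) and Zbtb34 (0.966). For Ptger1 the closest genes were Snx10 (0.985), Gm44509 (0.974) and Pcyox1 (0.970), and for Tbxa2r they were Gm17907 (0.946), Pcdhgb4 (0.939) and Gm4419 (0.936). Among the receptors themselves r was highest between Ptger3 and Ptgfr, 0.92, and lowest between Ptgdr and Tbxa2r, -0.65.

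Genes next to the receptors in the pathway were counted by list. Of 3 related binding proteins, Ptgdr2, Ptgfrn and Pparg, 2 could be tested and 0 passed the threshold in any comparison. Ptgdr2, which encodes the second receptor of prostaglandin D2, was near the limit of detection, with 1 and 0 counts in PTS + RS, 5 and 1 in RS, 5 and 4 with the HDAC3 inhibitor and 0 and 0 with NaCl. Ptgfrn, whose product binds FP, had 560 and 366 counts in PTS + RS and 382 and 311 in RS, and a log2 fold change of 0.42 ± 0.191 at an adjusted p of 0.31 (edgeR).

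Downstream of the receptors, 1 of 8 G protein genes and 2 of 19 genes of second messenger signalling passed the threshold between PTS + RS and RS, against 2.21% of all genes tested. Gnas, which encodes the Gs subunit that EP2, EP4, DP1 and IP use, fell: it was at 72.3 and 86.9 CPM in PTS + RS and at 156 and 178 CPM in RS, with a log2 fold change of -1.07 ± 0.112 and an adjusted p of 0.0037 (edgeR). The Gnas locus is known to hold antisense transcripts too, so the open strand setting also bears on its counts. Adcy7, an adenylyl cyclase gene, rose from 8.72 and 9.02 CPM in RS to 26.8 and 21.4 CPM in PTS + RS, with a log2 fold change of 1.44 ± 0.159. Plcb2, a phospholipase C gene, rose from 4.08 and 3.34 CPM to 11.3 and 8.74 CPM, with a log2 fold change of 1.43 ± 0.225. For all 3 genes the groups did not overlap, as for 50.2% of all genes. With the HDAC3 inhibitor 0 of the 27 genes of these lists passed, and Gnas had a log2 fold change of -0.14 ± 0.271 there.

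Upstream, 2 of 12 synthesis genes and 1 of 5 genes of breakdown and transport passed the threshold between PTS + RS and RS, all 3 as higher, against 2.21% of all genes tested. In the same libraries the 12 microglial markers summed to 1590 and 1360 CPM against 353 and 319 CPM, and their part in these rises and in those of Adcy7 and Plcb2 was not tested. Tbxas1, which encodes the synthase of the TP ligand thromboxane A2, was at 12.9 and 12.8 CPM in PTS + RS and at 3.20 and 2.97 CPM in RS, with a log2 fold change of 2.06 ± 0.182, whereas its receptor gene Tbxa2r had one of -0.14. Hpgds, the gene of a prostaglandin D synthase, had a log2 fold change of 1.67 ± 0.182 against 0.36 for Ptgdr. Ptgds, the other prostaglandin D synthase gene, was at 710 and 282 CPM in PTS + RS and at 875 and 481 CPM in RS. Hpgds was at 29.5 and 21.8 CPM and at 8.33 and 7.76 CPM there. Ptgds had a log2 fold change of -0.45 ± 0.425 at an adjusted p of 0.64 (edgeR). Hpgd, whose product inactivates prostaglandins, had one of 1.44 ± 0.199. Ptgs1, which encodes COX1, had an adjusted p of 0.033 (edgeR) at a log2 fold change of 0.80 ± 0.145, under the limit of 1. Ptgs2 (-0.26 ± 0.133) and Ptges (-0.18 ± 0.380), which encode COX2 and a prostaglandin E synthase, had adjusted p-values of 0.36 and 0.86 (edgeR). With the HDAC3 inhibitor 0 of these 17 genes passed. The difference between a ligand's synthase and its receptor was not tested.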

How the data were processed

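RNA-seq libraries of 4 groups were analysed, 2 libraries in each. Per the labels and the study's methods, the authors aligned reads to GRCm38 with STAR 2.4.0 and counted reads per gene with HTSeq 0.6.1; the deposited counts are not normalized, and the strand setting is not given in the sources used here. The deposited FPKM are counts divided by gene length and by 1 factor per library. Deposited fold changes and p-values, which hold the authors' own comparisons, and 8 columns of normalized signal were not used. A result that needs a withheld item is not reported here. The HDAC3 inhibitor table was matched to identifiers by position for all 28229 genes.

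Genes were filtered by filterByExpr, normalized by TMM and compared by the quasi-likelihood test of edgeR 4.0.16 in R 4.3.3, with Benjamini-Hochberg adjustment over all tested genes. Alternatives were RLE size factors, DESeq2 1.42.0, limma-voom (limma 3.58.1), no filter, a replicate block and each library left out. The steps were tested on simulated data. Tables and figures used Python 3.11.15, pandas 2.3.3 and matplotlib 3.10.9. Counts ranged from 15902013 to 21712033 per library, and replicates differed by more than sampling noise, with correlations of log CPM between 0.936 and 0.988.

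The members and lists were chosen with earlier results of these data known. Named were all 8 receptors, pathway genes past the threshold (at most 6 per comparison, by adjusted p), Ptgdr2, Ptgfrn, Ptgs1, Ptgs2, Ptges and Hpgd, and the 3 genes most like each receptor that passed both filters. Ptgds was named after its values were seen. The marker lists also held astrocytes, oligodendrocytes, neurons, endothelial cells and neutrophils. In the HDAC3 inhibitor table the replicate number is the labelled tissue and thus pairs the samples; the differences between replicates correlated at 0.314 between its 2 groups. P-values measure the spread between libraries, which may be technical. Between HDAC3 inhibitor and NaCl this spread also holds the difference between the labelled tissues, since the main fit has no block.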

Additional observations from a re-analysis of the deposited data

Results flagged for a closer look

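Between the cortex-labelled and the amygdala-labelled pair, 4 receptors had ratios of HDAC3 inhibitor over NaCl in opposite directions. The log2 ratio of Ptger3 was -0.31 in the cortex-labelled pair and 0.44 in the amygdala-labelled pair. That of Ptger4 was 0.68 and -0.64, that of Ptgdr 0.33 and -0.58, and that of Ptgfr -0.14 and 0.15. Each pair is 1 library against 1, so the difference was not tested, and the exact counting interval of each of these 8 ratios held 1. Of all 17565 genes, 51.2% had opposite directions in the 2 pairs (log2 ratios with a prior count of 2), and NaCl 1 is in the cortex-labelled pair.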

How the results depend on the processing

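The number of receptors past the threshold was 0 in all 3 comparisons under every alternative run but 1: without a filter on low counts, 1 receptor, Ptger4, passed between PTS + RS and RS. There 604 genes were higher and 155 lower among 30105 genes, against 373 and 16 among 17581 with the filter. With each library left out in turn the number of receptors stayed at 0. The number of all genes past it moved, to 626 higher and 114 lower between PTS + RS and RS without PTS + RS replicate 2 and to 388 and 192 without PTS + RS replicate 1. Of 100 log2 fold changes under the other settings 2 changed sign, that of Ptgdr between PTS + RS and RS with limma-voom (-0.78) and that of Ptgfr with the replicate block (0.00). With the replicate block Ptger4 kept a log2 fold change of 1.09 between PTS + RS and RS, where the numbers do not pair the samples (correlation 0.0317), and Ptger2 had -1.90 between HDAC3 inhibitor and NaCl. The block changed no call. Leaving out 1 library at a time moved the log2 fold changes over 0 for these receptors. Between PTS + RS and RS they ran from -3.22 to 1.29 for Ptgdr, -0.63 to 0.22 for Ptger3, -0.55 to 0.59 for Ptgfr and -0.74 to 0.29 for Tbxa2r. Between HDAC3 inhibitor and NaCl they ran from -0.34 to 0.47 for Ptger3, -0.39 to 0.46 for Ptger4, -0.68 to 0.44 for Ptgdr and -0.22 to 0.24 for Ptgfr. Between the labelled tissues they ran from -0.28 to 1.0 for Ptger1, -1.64 to 1.17 for Ptger2 and -0.17 to 0.54 for Ptger4. The cause was not tested. With CPM in place of FPKM, which leaves out gene length, Tbxa2r was sixth in place of the second. The low counts of Ptger2 and Ptgir limit what could be seen of them.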
